A study of Caenorhabditis elegans with 80 samples.

Results

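Yolk transcripts of the nematode Caenorhabditis elegans were followed through the 6 vitellogenin genes, vit-1 to vit-6, and rme-2, the gene of the yolk receptor. The 7 genes were chosen by symbol, and their measurements were taken as every probe set whose annotated gene symbol was one of the 7. This gave 11 of 22548 probe sets, for 6 of the 7 genes, out of 17118 genes that the array measures by 1 symbol. Whole worms at the middle of the fourth larval stage (L4), the last before the adult, were exposed in CeHR, a liquid medium without bacteria, at 22.5 °C. Each of 3 chemicals formed a series, with exposures of 4 h and 8 h and unexposed controls at 0 h, 4 h and 8 h. Acrylamide, a reactive industrial monomer, was given at 100, 500 and 1000 mg/L. Cadmium was given at 5, 20 and 50 mg/L and mercury at 5, 10 and 25 mg/L, and these doses are called low, mid and high. The 27 groups held 3 arrays each, except the mid dose of cadmium at 4 h, with 2. The labels name no strain and do not say which replicates were separate cultures. In each series they give all arrays of one replicate number a shared code, of which there are 3, and do not say what it stands for. Counts from a fit with the replicate number as a block are given beside a result where they move it by over 1.5 times. They speak of a single flask harvested before exposure for the 0 h control. Technical spread may therefore make up part of the variation that the p-values are based on.

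Vitellogenins are the precursors of yolk, large lipoproteins that carry lipid and protein to the embryo. In C. elegans they are made in the intestine, secreted into the body cavity, and taken up into growing oocytes by RME-2, a receptor of the low-density lipoprotein receptor family. Their transcription is switched on at the passage from the last larval stage to the adult, in the hermaphrodite intestine. rme-2 is transcribed in the germ line, where oocytes form. These worms were whole animals, so fewer cells of a type and less RNA per cell cannot be told apart.

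The vitellogenins were read by 10 probe sets. There was 1 each for vit-1, vit-2 and vit-5 alone, 3 for vit-4, 2 for vit-6 and 2 shared by vit-4 and vit-5. No probe set was annotated to vit-3, which codes for a protein close to that of vit-4 and lies beside it on chromosome X with 0 protein-coding genes between them (RefSeq, WBcel235). vit-1 to vit-5 lie on chromosome X, and vit-6 and rme-2 lie on chromosome IV. On this array 7 of the 10 carry a suffix (x or s) that marks possible cross-hybridization with related transcripts, and every vit-4 and vit-5 probe set is among them. Signal from vit-3, vit-4 and vit-5 can therefore not be separated. The probe sets of vit-1, vit-2 and rme-2 and one of vit-6 (190649_at) carry no such suffix. All 11 passed the filter on dim probe sets in all 3 series. Values are the authors' MAS5 signal after centring each array on a median of 202.9. A signal is a brightness on a linear scale, and one probe set's level is not compared with that of another. Differences are on the scale of log2(signal + 51), which understates the change of dim probe sets. They are given with the standard error (SE) of limma's test, and a probe set is called where the p-value adjusted over all probe sets tested by the Benjamini-Hochberg method was under 0.05. Shares of all probe sets are at this threshold and from the main fit, which has no block. None was taken at an unadjusted p or under another setting.

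The deposited arrays had been scaled alike. The trimmed mean was 500.1 to 500.2 in 79 arrays and 214.9 in the remaining array, which was replicate 1 of the 0 h controls in the acrylamide series. After centring, its vit-6 and rme-2 signals lay near those of the other 0 h controls of its series. Replicate 1 of the acrylamide series at 4 h stood apart in another way. Its control and its low dose had far more yolk signal than replicates 2 and 3, as described below with the values. The ratio of the 3' to the 5' actin control probe set, a measure of how complete the labelled RNA is, rises as the RNA is shorter. Its log2 value was 1.31 ± 0.169 at 8 h of high acrylamide and 0.97 ± 0.095 in the control (SD, n = 3 each). It was 1.1 ± 0.376 at 8 h of high cadmium against 0.876 ± 0.25 in the control, and 1.53 ± 0.127 at 8 h of high mercury against 1.01 ± 0.097 in the control. At mid mercury and 8 h it was 1.34 ± 0.053. In acrylamide and mercury the high-dose arrays lay above the controls, as did those of mid mercury, while the cadmium arrays overlapped. Counts with the ratio as a covariate are given beside the results of these doses.

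Without any chemical, yolk gene signal rose within the 8 h of the experiment. All 10 vitellogenin probe sets were called higher at 8 h than at 0 h in the controls of all 3 series, with no overlap between arrays. The median log2 difference was 4.11 in the acrylamide series, 5.06 in the cadmium series and 3.75 in the mercury series. Over all probe sets tested the medians were -0.22, -0.13 and -0.22. The share of all probe sets called higher was 10.7% in the acrylamide controls, 11.1% in the cadmium controls and 12% in the mercury controls. By size of rise, vit-6 (190649_at) ranked 7 of 16542 in the acrylamide series, 3 of 16225 in the cadmium series and 7 of 15886 in the mercury series.

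The vit-6 probe set 190649_at read 9448, 5473 and 7539 in the acrylamide controls at 8 h, against 182, 158 and 174 at 0 h. In the cadmium controls it read 8782, 13241 and 6956 at 8 h and 82, 158 and 94 at 0 h. In the mercury controls it read 8545, 12675 and 8820 at 8 h, against 660, 245 and 530 at 0 h. The 0 h arrays were low in every series, and for this probe set the mercury controls began higher than those of the other series. The log2 differences were 5.05 ± 0.83 (adjusted p = 0.000148), 5.88 ± 0.48 (adjusted p = 3.38e-09) and 4.32 ± 0.44 (adjusted p = 6.92e-09) in the acrylamide, cadmium and mercury series. vit-2 (191323_at), which codes for one of the larger yolk proteins, read 3242, 4552 and 2526 in the cadmium controls at 8 h against 3, 27 and 16 at 0 h. Its rise was 4.88 ± 0.78, 5.69 ± 0.44 and 4.21 ± 0.49 in the acrylamide, cadmium and mercury controls. vit-1 (177065_at), a close relative of vit-2, rose by 3.85 ± 0.51, 3.94 ± 0.36 and 3.43 ± 0.48. For the other vitellogenins the rise lay within the range of the 10, which ran between 2.52 and 5.05 in the acrylamide series, between 2.91 and 5.88 in the cadmium series, and between 3.03 and 4.32 in the mercury series.

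The median rise was larger in the second 4 h than in the first. It was 3.03 against 1.04 in the acrylamide controls, 3.67 against 0.83 in the cadmium controls and 2.34 against 1.13 in the mercury controls. vit-6 (190649_at) in the mercury controls did not follow this, with 2.05 ± 0.44 in the second 4 h and 2.27 ± 0.44 in the first. Between 0 h and 4 h, 0 of 10 vitellogenin probe sets were called higher in the acrylamide controls, beside 3.97% of all probe sets. At an unadjusted p under 0.05 there were 4, with no share taken. In the cadmium controls 3 of 10 were called, beside 5.07%, and in the mercury controls 3 of 10, beside 8.94%. The called ones were vit-2 and both vit-6 probe sets in each of these metal series. vit-6 (190649_at) rose by 2.75 ± 0.48 in the cadmium controls (adjusted p = 0.00115) and by 2.27 ± 0.44 in the mercury controls (adjusted p = 0.000371). vit-4 (172134_x_at) differed by 0.78 ± 0.39 and 1.08 ± 0.44 over the same 4 h (adjusted p = 0.255 and 0.0924). Leaving out replicate 1 of the mercury control at 0 h raised the mercury count to 7. A block for the replicate number gave 4 of 10 in the acrylamide controls and 8 in the mercury controls. Within the 3 replicate numbers the median difference was 2.42, 0.6 and 0.17 in the acrylamide controls and 0.78, 1.69 and 0.92 in the mercury controls.

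Between 4 h and 8 h, 10 of 10 were called higher in the cadmium controls, beside 3.56% of all probe sets, and 10 of 10 in the mercury controls, beside 4.48%. In the acrylamide controls 6 of 10 were called, beside 0.133%, with a median difference of 3.03. vit-4 (172134_x_at) had the greatest rise of all 16542 probe sets there, 3.59 ± 0.57 (adjusted p = 0.006). The acrylamide controls at 4 h were uneven. vit-6 (190649_at) read 4062, 438 and 289 in them, vit-2 read 1432, 94 and 103, and rme-2 read 1374, 392 and 353. Replicate 1 was well above replicates 2 and 3 for each of these genes, and its own 8 h control was also the highest of the 3. With the acrylamide series limited to replicates 2 and 3, a setting chosen after seeing the data, 10 of 10 vitellogenin probe sets were called between 4 h and 8 h. With the replicate number as a block 10 of 10 were called as well. The 0.133% comes from the main fit and does not apply to either count. All 30 differences within a replicate number were above 0. These 30 are 10 probe sets in each of 3 replicate numbers. The probe sets follow one another, so the 30 are not independent values. Leaving out replicate 1 of the 8 h control or replicate 3 of the 4 h control left 0 called, leaving out replicate 2 of the 4 h control left 1, and leaving out replicate 3 of the 8 h control left 3.

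**Figure D1:**
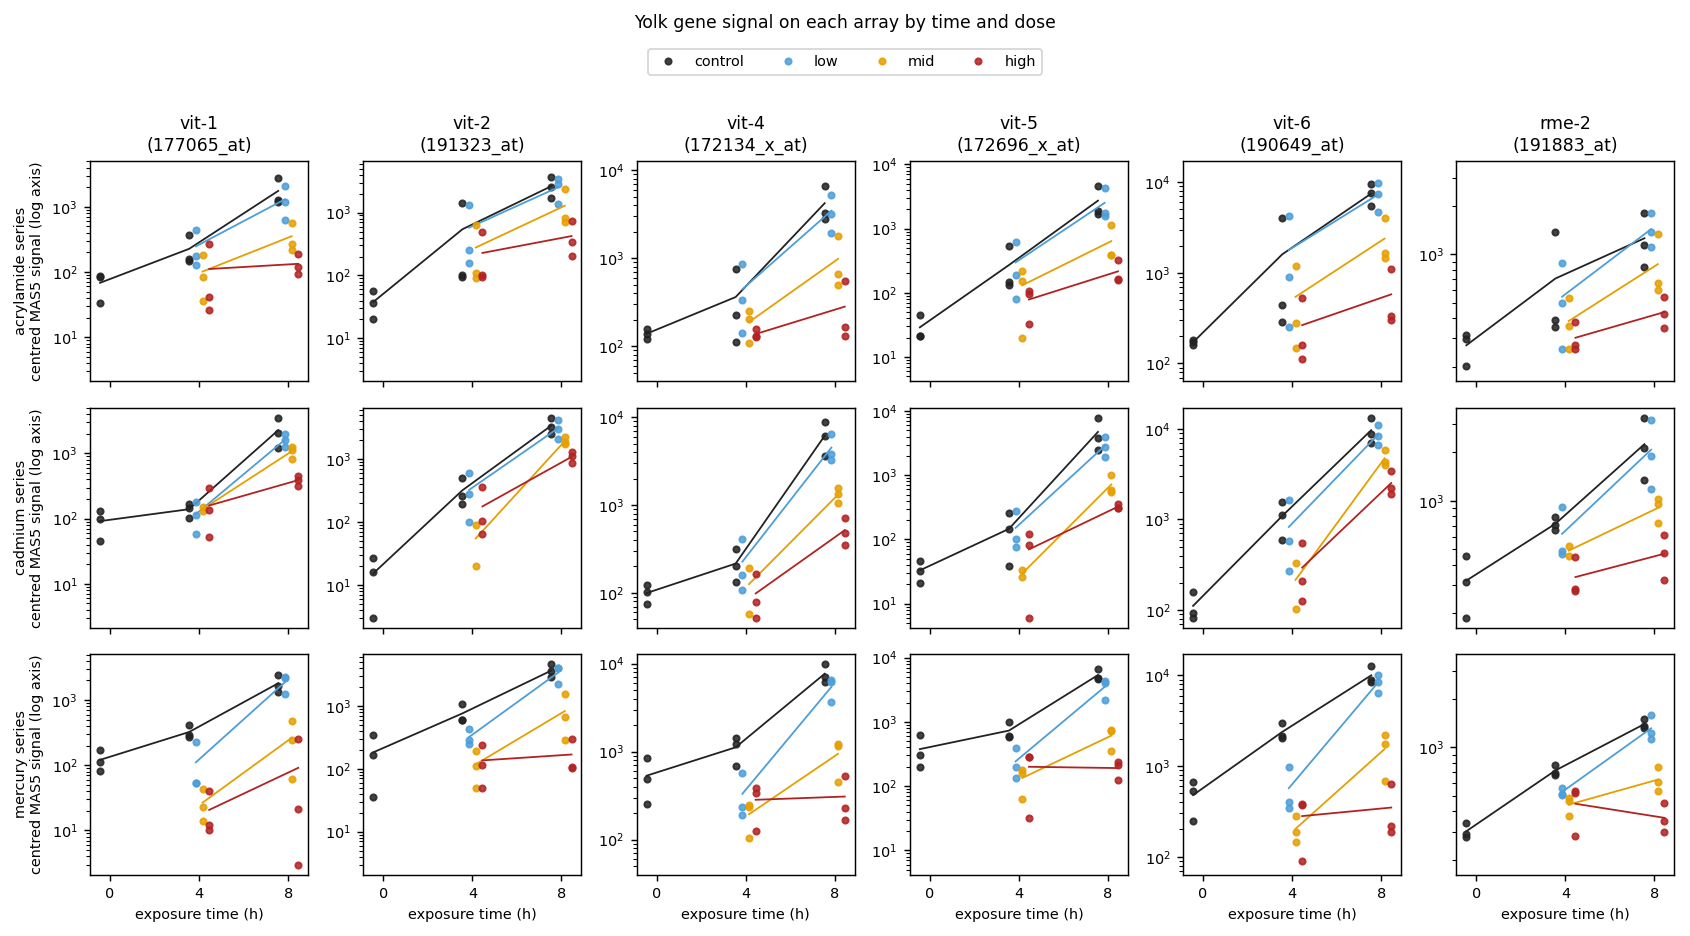
Centred MAS5 signal (log axis) on each array against exposure time in hours, for 6 of the 11 probe sets in columns and the 3 chemical series in rows; points are arrays and lines join group means, from control (black) to high dose (red). Groups are set slightly apart sideways. The control means are higher at 8 h than at 4 h and 0 h in every panel, while at high mercury the arrays of 4 h and 8 h overlap.

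rme-2 rose with the vitellogenins in the controls, by less. Its probe set (191883_at) read 1794, 830 and 1148 in the acrylamide controls at 8 h against 313, 298 and 203 at 0 h. In the cadmium controls it read 2125, 3290 and 1346 at 8 h, against 187, 457 and 313 at 0 h. In the mercury controls it read 1320, 1509 and 1370 at 8 h, against 278, 338 and 288 at 0 h. No array at 8 h overlapped the 0 h arrays. The differences were 1.97 ± 0.42 (adjusted p = 0.00102), 2.62 ± 0.35 (adjusted p = 2.98e-06) and 2.04 ± 0.19 (adjusted p = 1.01e-09) in the acrylamide, cadmium and mercury series. By 4 h rme-2 was called higher in the cadmium controls (1.12 ± 0.35, adjusted p = 0.0476) and in the mercury controls (1.13 ± 0.19, adjusted p = 5.36e-05). In the acrylamide controls at 4 h it differed by 0.99 ± 0.42 (adjusted p = 0.132).

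After 8 h of the high dose, all 10 vitellogenin probe sets were called lower than in the control of the same time in all 3 series, and in no case did an exposed array reach a control array. The share of all probe sets called lower was 4.61% for acrylamide, 2.82% for cadmium and 14% for mercury. The median difference was -3.52 for acrylamide (range -4 to -1.88), -2.71 for cadmium (range -3.51 to -1.59) and -4.28 for mercury (range -4.81 to -2.96). The medians over all probe sets tested were -0.06, -0.12 and 0.01. As a percent of the control mean on the linear scale, the median vitellogenin signal was 7.82% at high acrylamide, 10.6% at high cadmium and 4.5% at high mercury. With the actin ratio as a covariate, 8 of 10 were called lower for acrylamide, 10 for cadmium and 10 for mercury, with medians of -3.3, -2.56 and -4.4.

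vit-6 (190649_at) read 1102, 299 and 336 at high acrylamide, against 9448, 5473 and 7539 in its 8 h controls. It read 2207, 3465 and 1894 at high cadmium, against 8782, 13241 and 6956 in controls. It read 640, 186 and 220 at high mercury, against 8545, 12675 and 8820 in controls. All exposed arrays were low in all 3 series, those of cadmium least so. The differences were -3.77 ± 0.83 for acrylamide (adjusted p = 0.00366), -1.91 ± 0.48 for cadmium (adjusted p = 0.0129) and -4.81 ± 0.44 for mercury (adjusted p = 2.42e-09). The mercury value was the lowest of all 15886 probe sets tested in that comparison. The other vit-6 probe set (173411_s_at) differed by -2.2 ± 0.42 at high cadmium and by -4.4 ± 0.34 at high mercury.

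vit-5 (172696_x_at) read 325, 166 and 157 at high acrylamide, against 4618, 1680 and 1875 in controls. It read 311, 353 and 308 at high cadmium, against 3814, 7855 and 2506 in controls. It read 236, 124 and 212 at high mercury, against 4849, 6641 and 4565 in controls. The groups lay far apart in each series. The differences were -3.28 ± 0.58, -3.51 ± 0.43 and -4.49 ± 0.43 for acrylamide, cadmium and mercury, and the cadmium value was the lowest of all 16225 probe sets tested there. vit-4 (172134_x_at) fell by 3.8 ± 0.57, 3.41 ± 0.39 and 4.53 ± 0.44 in the same order of chemicals. The third vit-4 probe set, 172673_x_at, was dimmer and uneven in controls, with 1972, 383 and 386 at 8 h in the acrylamide series. It fell least of the 10 for acrylamide and mercury. Its high-dose arrays read 284, 92 and 111 for acrylamide, all below those controls.

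vit-1 and vit-2 fell as well. vit-2 (191323_at) read 725, 206 and 339 at high acrylamide, against 3637, 1731 and 2539 in controls. At high cadmium it read 1126, 1281 and 858, against 3242, 4552 and 2526 in controls, the smallest fall of the 10 for that metal (-1.59 ± 0.44, adjusted p = 0.0259). At high mercury it read 296, 103 and 106, against 3550, 4561 and 2823 in controls. vit-1 (177065_at) read 250, 21 and 3 at high mercury, against 1665, 2418 and 1349 in controls, a difference of -4.1 ± 0.48. It read 189, 120 and 92 at high acrylamide and 2801, 1287 and 1184 in controls, a difference of -3.22 ± 0.51. At high cadmium it read 314, 458 and 398, against 2097, 3533 and 1197 in controls, a difference of -2.28 ± 0.36.

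**Figure D2:**
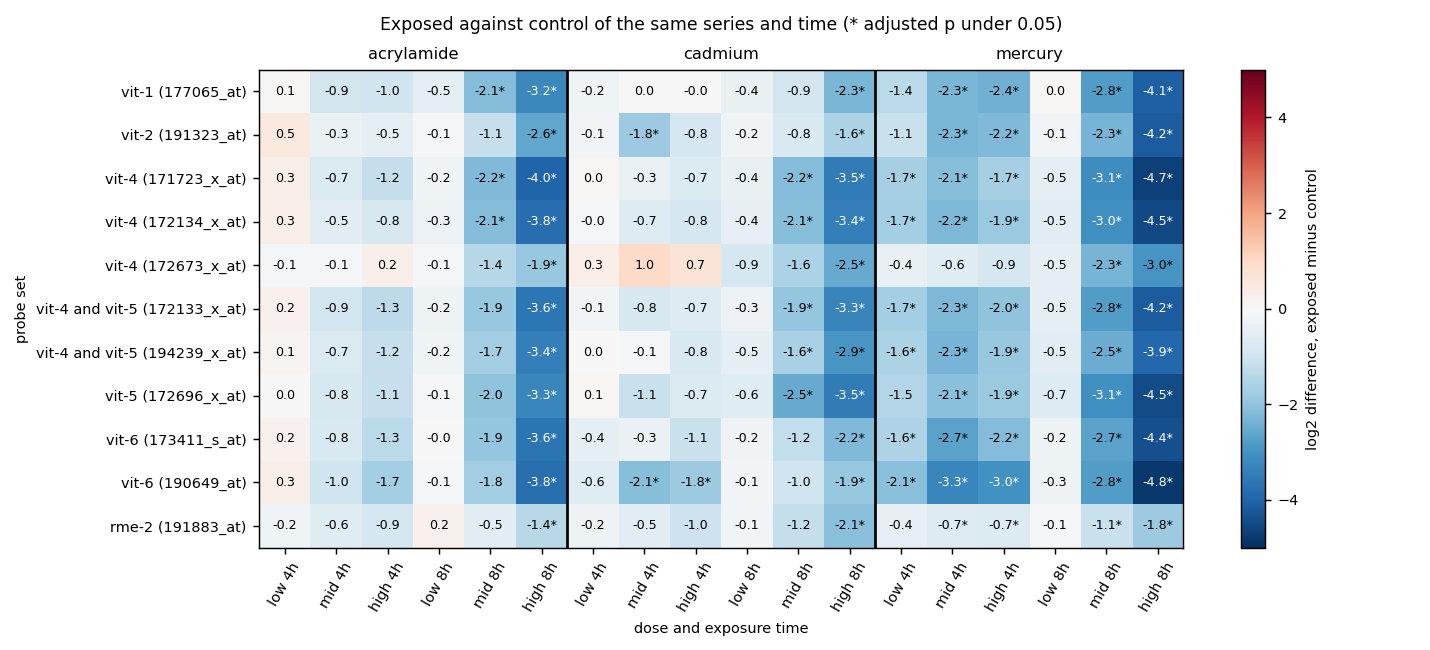
Log2 difference of each dose from its own control at the same hour for the 11 probe sets (rows), with acrylamide, cadmium and mercury from left to right and blue for lower; asterisks mark adjusted p under 0.05. At 8 h the high-dose columns are marked in all 11 rows, and at 4 h most marks are in the mercury columns.

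The receptor gene fell at the high dose in all 3 series. rme-2 read 540, 424 and 347 at high acrylamide, against 1794, 830 and 1148 in controls. It read 612, 472 and 324 at high cadmium, against 2125, 3290 and 1346 in controls. It read 349, 450 and 296 at high mercury, against 1320, 1509 and 1370 in controls. No exposed array reached a control array. The differences were -1.38 ± 0.42 for acrylamide (adjusted p = 0.0378), -2.1 ± 0.35 for cadmium (adjusted p = 0.000211) and -1.82 ± 0.19 for mercury (adjusted p = 1.81e-08). Its level at high dose was 34.8% of the control mean for acrylamide, 20.8% for cadmium and 26.1% for mercury. At the mid dose rme-2 was called lower for mercury (-1.1 ± 0.19, adjusted p = 9.18e-05), while the differences were -0.53 ± 0.42 for acrylamide and -1.2 ± 0.35 for cadmium (adjusted p = 0.77 and 0.0758).

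At the mid dose and 8 h, 10 of 10 vitellogenin probe sets were called lower for mercury, as at the high dose, beside 7.48% of all probe sets. With the actin ratio as a covariate the mercury count was also 10, with a median of -2.74. For cadmium 5 of 10 were called, beside 0.431%, and for acrylamide 3 of 10, beside 0.465%. The median vitellogenin signal was 25.6% of the control mean for acrylamide, 27.4% for cadmium and 15% for mercury. At 20 mg/L of cadmium the 5 called were the vit-4 and vit-5 probe sets other than 172673_x_at. vit-5 (172696_x_at) read 543, 1021 and 593 there, against 3814, 7855 and 2506 in controls (-2.52 ± 0.43, adjusted p = 0.000596). vit-2 read 2250, 1861 and 1731 there, against 3242, 4552 and 2526 in controls (-0.77 ± 0.44, adjusted p = 0.557). vit-6 (190649_at) read 4352, 5823 and 4009 there, against 8782, 13241 and 6956 in controls (-0.99 ± 0.48, adjusted p = 0.44). Leaving out replicate 2 of the cadmium control left 3 called.

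At 500 mg/L of acrylamide the called probe sets were vit-1 (-2.15 ± 0.51, adjusted p = 0.0183) and 2 of vit-4. vit-6 (190649_at) read 4045, 1650 and 1467 there, against 9448, 5473 and 7539 in controls (-1.75 ± 0.83, adjusted p = 0.464). All 3 exposed arrays were below the controls. This count of 3 moved with single arrays. It was 6 without replicate 1 of the mid dose, 0 without replicate 2 or 3 of the mid dose or replicate 1 of the control, and 1 without replicate 2 or 3 of the control. It was 9 with replicates 2 and 3 alone and 1 with the actin ratio as a covariate. With the replicate number as a block it was 7. All 30 differences within a replicate number were below 0, which are 10 probe sets in 3 replicate numbers and not independent values.

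At the low dose and 8 h, 0 of 10 were called for any chemical, beside 0.00605% of all probe sets called lower at low acrylamide, 0.037% at low cadmium and 0.00629% at low mercury. At an unadjusted p under 0.05 the count was also 0 in each. The median difference was -0.15 at low acrylamide, -0.38 at low cadmium and -0.47 at low mercury. The median vitellogenin signal was 89%, 74.1% and 74.9% of the control mean. vit-6 (190649_at) read 9803, 4678 and 7362 at low acrylamide, against 9448, 5473 and 7539 in controls. The 95% interval of its difference ran from -1.78 to 1.64, so a change within that width was not detectable with these arrays. For low cadmium the interval ran from -1.14 to 0.83 and for low mercury from -1.17 to 0.63. rme-2 differed by 0.22 ± 0.42, -0.13 ± 0.35 and -0.1 ± 0.19 at the low dose of acrylamide, cadmium and mercury.

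**Figure D3:**
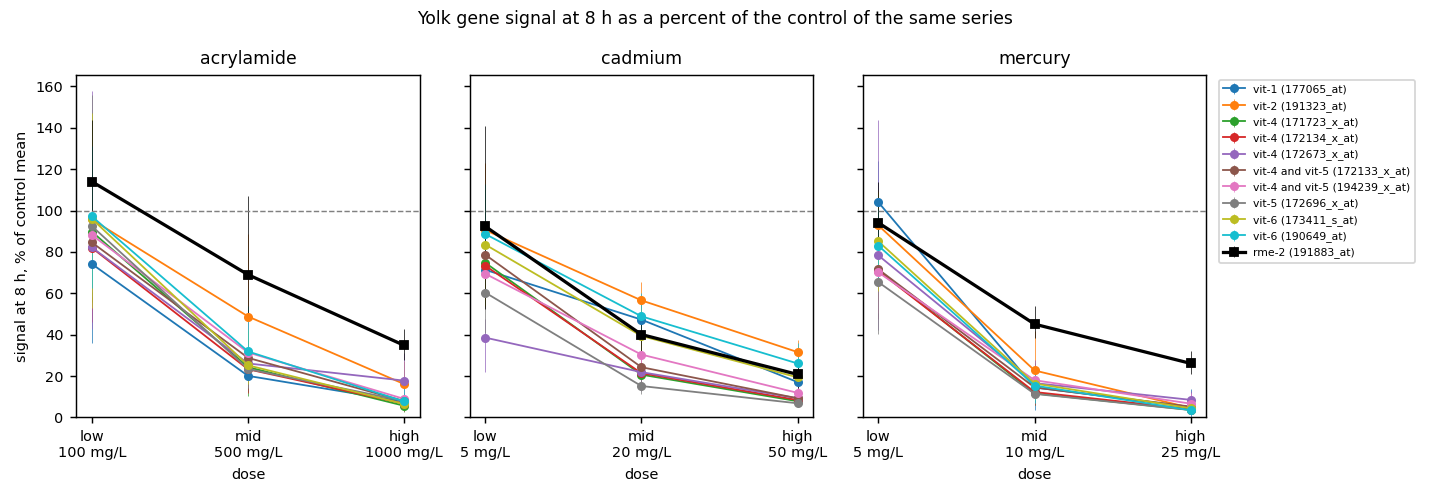
Mean signal at 8 h as a percent of the control mean of the same series (dashed line, 100) against dose, for the 10 vitellogenin probe sets and rme-2 (black squares), with thin bars from the lowest to the highest array. Signals step down from low to high dose in each panel, and at high cadmium vit-2 and vit-6 (190649_at) lie above the other vitellogenins.

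A linear trend fitted with 1 equal step between successive doses, starting from the control, was called downward at 8 h for 10 of 10 vitellogenin probe sets in each series, beside 5.77% of all probe sets in the acrylamide series, 4.8% in the cadmium series and 16.9% in the mercury series. The median slope per dose step was -1.22 for acrylamide, -0.91 for cadmium and -1.54 for mercury on the log2 scale. rme-2 was called in each as well, with slopes of -0.49, -0.74 and -0.65. At 4 h the trend was called for 0 of 10 probe sets for acrylamide, beside 3.52% (7 at an unadjusted p under 0.05, 5 called with the replicate number as a block, and 2 called without replicate 3 of the control and 1 without replicate 3 of the low or of the high dose). The 3.52% does not apply to the counts in brackets. The 4 h trend was called for 2 of 10 for cadmium, beside 8.27%, and for 9 of 10 for mercury, beside 15.1%. The mercury count at 4 h was 6 with the actin ratio as a covariate. The cadmium count at 4 h was 4 without replicate 2 of the high dose and 1 without replicate 1 or 3 of the high dose or replicate 2 or 3 of the control or of the low dose.

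After 4 h most calls were in the mercury series. For mercury, 6 of 10 vitellogenin probe sets were called lower at the low dose, beside 1.65% of all probe sets, 9 of 10 at the mid dose, beside 9.42%, and 9 of 10 at the high dose, beside 13.4%. The median differences were -1.57, -2.27 and -1.95. vit-6 (190649_at) read 965, 400 and 346 at low mercury, 279, 144 and 186 at mid mercury and 374, 90 and 378 at high mercury, against 2956, 2121 and 2057 in the 4 h controls. Every exposed array was below every control array, and the mid and high doses overlapped each other. The differences from control were -2.08 ± 0.44 (adjusted p = 0.0043), -3.27 ± 0.44 (adjusted p = 2.61e-06) and -3.02 ± 0.44 (adjusted p = 6.52e-06). The vit-4 probe set 172673_x_at was the one not called at mid and high dose, with -0.6 and -0.88. With the actin ratio as a covariate the counts were 6, 9 and 4. The log2 actin ratio was 1.31 ± 0.129 at 4 h of high mercury and 0.855 ± 0.078 in the control (SD, n = 3 each).

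The 4 h count at low mercury also rested on few arrays. It fell to 1 without replicate 1 of the control or replicate 2 of the low dose, and to 2 without replicate 3 of either. vit-4 (172134_x_at) read 572, 189 and 232 there, against 1438, 695 and 1224 in controls (-1.69 ± 0.44, adjusted p = 0.0272). vit-1 read 226, 53 and 54, against 411, 292 and 269 in controls (-1.36 ± 0.48, adjusted p = 0.183). vit-2 read 423, 291 and 243, against 1086, 593 and 595 in controls (-1.1 ± 0.49, adjusted p = 0.358). In all 3 probe sets the exposed arrays were below the controls. rme-2 was called lower at 4 h of mid mercury (-0.65 ± 0.19, adjusted p = 0.0145) and high mercury (-0.67 ± 0.19, adjusted p = 0.00904), and at low mercury it differed by -0.41 ± 0.19 (adjusted p = 0.383).

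For cadmium at 4 h, 0 of 10 vitellogenin probe sets were called lower at the low dose, beside 0.117% of all probe sets, 2 of 10 at the mid dose, beside 10.4%, and 1 of 10 at the high dose, beside 4.26%. The 2 at the mid dose, where 2 arrays were measured, were vit-2 (-1.8 ± 0.49, adjusted p = 0.0183) and vit-6 (190649_at, -2.14 ± 0.53, adjusted p = 0.0116). vit-2 read 20 and 90 there, against 195, 260 and 506 in controls. vit-6 (190649_at) was also the one at the high dose, with 126, 545 and 211 against 598, 1132 and 1541 in controls (-1.82 ± 0.48, adjusted p = 0.0182). The vit-4 probe set 172673_x_at was dim in the 4 h controls of this series, with a mean of 42.9. The other vit-4 and vit-5 probe sets had means of 146 to 344 there, and vit-2 had 320. 172673_x_at lay higher at mid cadmium (154 and 100) than in controls (13, 78 and 38), which did not pass the test (0.96 ± 0.53, adjusted p = 0.209). The mid-dose count was 0 without replicate 1 of the mid dose and 1 without replicate 3 of the control. The high-dose count was 2 with the replicate number as a block, 3 without replicate 2 of the high dose, and 0 without replicate 1 or 3 of the high dose or replicate 2 or 3 of the control.

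For acrylamide at 4 h, 0 of 10 were called at any dose, beside 0.00605% of all probe sets at the low dose, 0.296% at the mid dose and 3.05% at the high dose. At an unadjusted p under 0.05 the counts were 0, 0 and 2. The median differences were 0.22, -0.75 and -1.16. vit-6 (190649_at) read 4205, 895 and 253 at low acrylamide, 1196, 283 and 150 at mid acrylamide and 524, 158 and 113 at high acrylamide, against 4062, 438 and 289 in controls. The control and the low dose shared a high replicate 1, and all groups overlapped. Without replicate 1 of the control the median at the high dose was -0.51. The fit with the block called 3 of 10 lower at the high dose, where the median difference within the 3 replicate numbers was -2.47, -0.62 and -0.3.

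**Figure D4:**
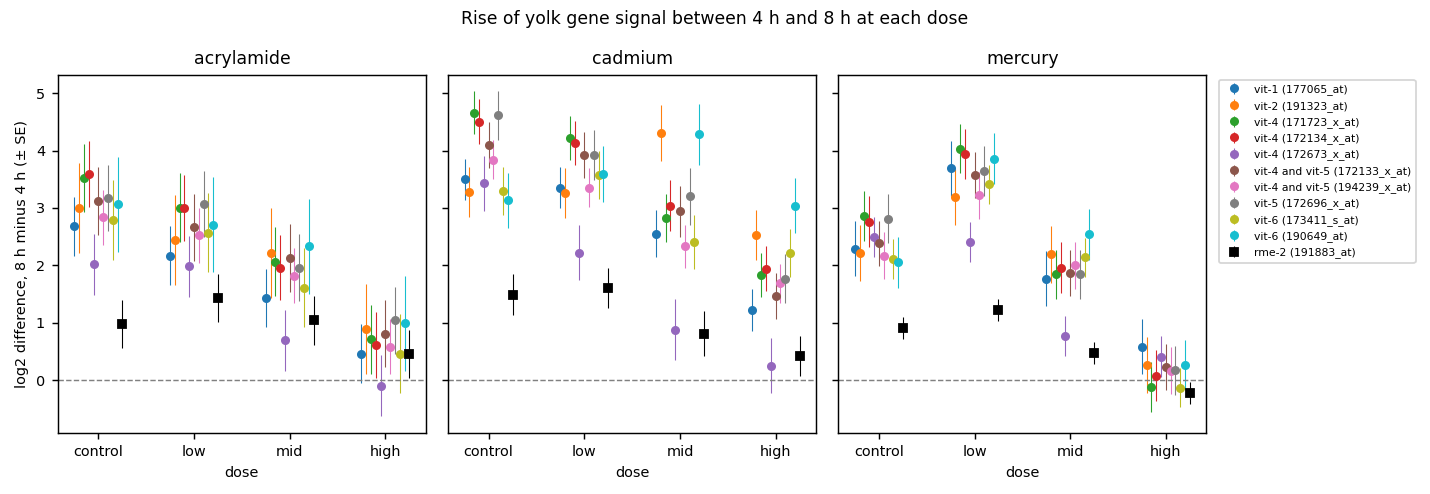
Log2 difference of 8 h less 4 h (± SE) at control, low, mid and high dose, for the 10 vitellogenin probe sets and rme-2 (black squares). At high mercury all points lie near 0, while at high cadmium vit-6 (190649_at) and vit-2 still rise by 3.04 and 2.53.

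The rise between 4 h and 8 h was compared across doses. At low cadmium 10 of 10 vitellogenin probe sets were called higher at 8 h than at 4 h, beside 2.59% of all probe sets, at mid cadmium 9 of 10, beside 7.17%, and at high cadmium 8 of 10, beside 1.27%. The median rise was 3.58, 2.88 and 1.8, against 3.67 in the controls. At low mercury 10 of 10 were called, beside 5.14%, at mid mercury 9 of 10, beside 2.45%, and at high mercury 0 of 10, beside 2.59% (0 at an unadjusted p under 0.05). The median rise was 3.6, 1.91 and 0.2, against 2.34 in the controls. For acrylamide 0 of 10 were called at any dose, beside 0.0121%, 0.121% and 0.115%. The median rise was 2.61, 1.96 and 0.66, against 3.03 in the controls, and 10, 9 and 0 probe sets passed an unadjusted p under 0.05. The shares above are at adjusted p, and none was taken at an unadjusted p. Under the replicate block, 10 of 10 were called at low and 7 at mid acrylamide, and no share of all probe sets was taken in that fit. Within a replicate number 30 of 30 differences were above 0 at the low dose, 29 of 30 at the mid dose and 23 of 30 at the high dose. Each 30 is 10 probe sets in 3 replicate numbers and not 30 independent values. Without replicate 1 of the low dose at 4 h, 10 of 10 were called at low acrylamide. The high-cadmium count was 4 without replicate 1 of the high dose at 4 h and 3 without replicate 2 of the high dose at 8 h.

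The difference between the rise at a dose and the rise in controls was then tested itself. At high cadmium 5 of 10 vitellogenin probe sets rose less than in controls, beside 0.0616% of all probe sets, and all 5 were vit-4 or vit-5 probe sets. vit-5 (172696_x_at) rose by 1.77 ± 0.43 at high cadmium and by 4.61 ± 0.43 in controls, a difference of -2.84 ± 0.61 (adjusted p = 0.0459). vit-6 (190649_at) rose by 3.04 ± 0.48 at high cadmium and by 3.13 ± 0.48 in controls, a difference of -0.09 ± 0.68 with a 95% interval from -1.48 to 1.3. This was the highest of the 10 differences, whose median was -2.42. The other vit-6 probe set (173411_s_at), also not called, had means of 413 at 4 h and 1990 at 8 h of high cadmium. Its control means were 917 and 10300. At high mercury 5 of 10 rose less than in controls, beside 0.378%, and rme-2 did too (-1.14 ± 0.26, adjusted p = 0.0352). The 5 were the 3 vit-4 probe sets, vit-5 and vit-6 (173411_s_at, -2.24 ± 0.47, adjusted p = 0.024). Both counts were near the threshold. The high-cadmium count was 0 without replicate 1 or 2 of the 4 h control, replicate 2 of the 8 h control, replicate 2 or 3 of the high dose at 4 h, or replicate 1 of the high dose at 8 h. It was 1 without replicate 1 of the 8 h control or replicate 2 or 3 of the high dose at 8 h. The high-mercury count was 0 without replicate 2 of the 4 h control, replicate 3 of the high dose at 4 h, or replicate 2 or 3 of the high dose at 8 h. It was 2 without replicate 1 of the 4 h control, of the high dose at 4 h or of the 8 h control, or without replicate 2 or 3 of the 8 h control. It was 3 without replicate 3 of the 4 h control and 8 without replicate 1 of the high dose at 8 h. It was also 8 with the replicate number as a block. All 30 differences within a replicate number were below 0, which are 10 probe sets in 3 replicate numbers and not independent values.

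In the other dose groups, 0 of 10 rose less than in controls by this test. The background shares were 0% at each dose of acrylamide, 0.0123% at low cadmium, 0.0247% at mid cadmium, 0.403% at low mercury and 0.0378% at mid mercury. At an unadjusted p under 0.05 the counts, in either direction, were 0, 0 and 8 for low, mid and high acrylamide, 0 and 5 for low and mid cadmium, and 3 and 1 for low and mid mercury. The background shares do not apply at that threshold. At low mercury the median ran the other way, 1.17 above the controls' rise, with no probe set called. At low mercury 6 of 10 vitellogenin probe sets were called below the 4 h control, beside 1.65% of all probe sets, a count that rested on few arrays. At 8 h 0 of 10 were called against control, beside 0.00629%. Leaving out replicate 2 of the mid dose at 4 h, where 1 array then remained and was assumed to vary like the other groups, gave 4 called at mid cadmium.

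Exposed worms at 8 h were also set against the worms at the start, a comparison chosen after the values were seen. It shares the 0 h controls with the control time course above. At high mercury 0 of 10 vitellogenin probe sets were above the 0 h control, beside 19.1% of all probe sets called higher (0 at an unadjusted p under 0.05), with a median of -0.67. At high acrylamide 2 of 10 were, beside 13%, with a median of 0.62. At high cadmium 9 of 10 were, beside 11.5%, with a median of 1.94. At the mid dose 9 of 10 were for acrylamide, beside 12.9%, 10 of 10 for cadmium, beside 11.2%, and 3 of 10 for mercury, beside 16.2%. vit-2 read 1126, 1281 and 858 at high cadmium, against 3, 27 and 16 in the 0 h controls, and vit-6 (190649_at) read 2207, 3465 and 1894, against 82, 158 and 94. vit-6 (190649_at) read 640, 186 and 220 at high mercury, against 660, 245 and 530 at 0 h. High cadmium thus had more yolk signal than its start, and high mercury overlapped with its start. The starting levels of these series were unlike. Mean vit-2 signal at 0 h was 182 in the mercury series and 15.3 in the cadmium series. For vit-5 (172696_x_at) it was 376 and 32.8, and for vit-1 it was 121 and 91.9. Without replicate 1 of the mid dose the mid-acrylamide count was 5. The high-acrylamide count was 0 without replicate 1 of the high dose and 1 without any one of the 0 h controls. The mid-mercury count was 8 without replicate 3 of the mid dose, 5 without replicate 1 of the 0 h control and 1 without replicate 2 of it. With the replicate number as a block the mid-mercury count was 5. At high mercury some probe sets were called below the 0 h control, 4 without replicate 1 of the high dose, 3 without replicate 2 of the 0 h control and 1 with the replicate number as a block.

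The groups were also put in order of level. For vit-6 (190649_at) in the mercury series the group means ran, low to high, mid 4 h (203), high 4 h (281), high 8 h (349), control 0 h (479), low 4 h (570), mid 8 h (1540), control 4 h (2380), low 8 h (8310) and control 8 h. Neighbours in this order overlapped in their arrays except the 4 h control and the low dose at 8 h. In the cadmium series the means were control 0 h (111), mid 4 h (216), high 4 h (294), low 4 h (827), control 4 h (1090), high 8 h (2520), mid 8 h (4730), low 8 h (8570) and control 8 h (9660). Here the 4 h controls did not overlap with high 8 h, nor high 8 h with mid 8 h, nor mid 8 h with low 8 h. In the acrylamide series the high dose at 8 h (579) lay between mid 4 h (543) and control 4 h (1600), and the one gap between neighbours lay between mid 8 h (2390) and low 8 h (7280).

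The size of the high-dose effect was compared between chemicals in 1 fit of all 80 arrays, each against its own controls. The doses in mg/L differ, so the comparison is between doses as used. At 8 h 0 of 10 vitellogenin probe sets differed between mercury and cadmium, beside 3.35% of all probe sets, between mercury and acrylamide, beside 3.33%, or between acrylamide and cadmium, beside 2.42%. At 4 h the counts were also 0, beside 1.63%, 2.67% and 2.03%. The unadjusted p was under 0.05 for 4, 0 and 1 at 8 h and for 2, 0 and 0 at 4 h. The greatest difference was for vit-6 (190649_at) at 8 h, lower by mercury than by cadmium (-2.89 ± 0.93, adjusted p = 0.0694, 95% interval -4.75 to -1.04). The interval for vit-5 (172696_x_at) in the same comparison was -2.47 to 0.51, and for rme-2 it was -0.7 to 1.26. Between acrylamide and cadmium, vit-6 (190649_at) gave -1.86 ± 0.93 with an interval from -3.72 to 0, and between mercury and acrylamide -1.03 ± 0.93 with an interval from -2.89 to 0.83. Leaving out replicate 1 of high mercury at 8 h gave 2 called lower by mercury than by cadmium, and leaving out replicate 1 of high cadmium at 4 h gave 1 at 4 h. The block gave 3 such calls at 8 h and 1 at 4 h.

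Markers of the tissues that make and take up yolk were set beside these values. At 8 h of the high dose, the share of all probe sets called lower was 4.61% for acrylamide, 2.82% for cadmium and 14% for mercury. The share called higher was 4.15%, 3.61% and 17.1%. Of 11 intestine markers, 6 were called lower at 8 h of high acrylamide and 0 higher, 0 lower and 2 higher at high cadmium, and 8 lower and 0 higher at high mercury. Their median difference was -0.9, -0.13 and -1. None was below the filter signal on all arrays of a group. Their summed signal was 29544 to 42856 at high acrylamide and 53491 to 61972 in its controls, 59904 to 86884 at high cadmium and 60962 to 75890 in its controls, and 40752 to 51948 at high mercury and 60315 to 77217 in its controls. At high cadmium the sums overlapped those of its controls, and they include mtl-2, which rose there by the value given below. act-5, an actin of the intestinal microvilli, fell by 2.58 ± 0.23 at high acrylamide (adjusted p = 1.41e-08), and mtl-2, a metallothionein that binds cadmium, rose by 2.06 ± 0.38 at high cadmium (adjusted p = 0.000701). ifb-2, an intermediate filament of the gut lining, fell by 1.38 ± 0.34 at high acrylamide and by 1.08 ± 0.18 at high mercury, and cpr-1, a gut protease, fell by 1.42 ± 0.24 at high acrylamide and by 1 ± 0.2 at high mercury. mtl-2 itself fell by 1.6 ± 0.39 at high acrylamide (adjusted p = 0.00918). The part of these shifts in the vitellogenin values was not tested.

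Oocyte and eggshell genes moved with rme-2 in direction. Of 15 listed, 14 rose between 0 h and 8 h in the acrylamide controls, 15 in the cadmium controls and 14 in the mercury controls. Over all probe sets 10.7%, 11.1% and 12% rose there. At 8 h of the high dose 9 fell for acrylamide, 11 for cadmium and 13 for mercury, beside 4.61%, 2.82% and 14% of all probe sets. None was higher, and the medians were -1.47, -1.61 and -1.36. chs-1, the chitin synthase of the eggshell, fell by 2.54 ± 0.49, 2.23 ± 0.41 and 1.5 ± 0.26 at high acrylamide, cadmium and mercury. egg-1, a receptor on the oocyte surface needed for fertilization, fell by 1.91 ± 0.45, 2.17 ± 0.34 and 1.75 ± 0.22. cpg-2, an eggshell proteoglycan, fell by 1.72 ± 0.49, 1.96 ± 0.35 and 1.54 ± 0.2, and cbd-1, a chitin-binding eggshell protein, by 1.69 ± 0.39, 1.75 ± 0.32 and 1.84 ± 0.2. The summed signal of the list was 7818 to 11195 at high acrylamide and 19463 to 36824 in its controls. It was 9607 to 13421 at high cadmium and 25949 to 56263 in its controls, and 11633 to 16733 at high mercury and 29137 to 36696 in its controls. The part of oocyte number in the rme-2 values was not tested.

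**Figure D5:**
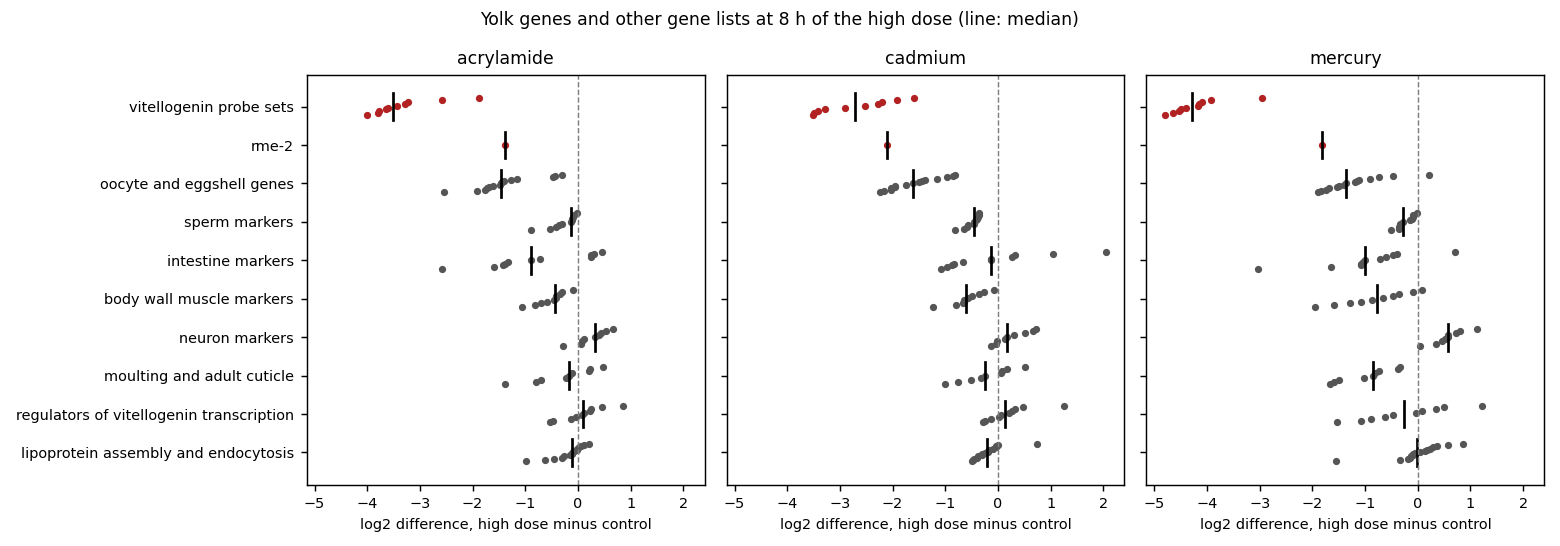
Log2 difference at 8 h of the high dose from control for each vitellogenin probe set and rme-2 (red) and for each gene of 8 other lists (grey), with the median as a black line, 1 panel per chemical. The vitellogenins have the lowest median in each panel, with oocyte and eggshell genes near rme-2, and sperm markers near 0.

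Sperm markers rose with time in controls but were not called at the high dose. Of 11 tested, 11, 10 and 11 rose between 0 h and 8 h in the acrylamide, cadmium and mercury controls, with medians of 2.46, 2.15 and 1.98. Over all probe sets 10.7%, 11.1% and 12% rose there. At 8 h of the high dose 0 of 11 passed limma's test in any series, with medians of -0.14, -0.45 and -0.29. Their summed signal was 92129 to 103165 at high acrylamide and 103924 to 120353 in its 8 h controls. It was 92028 to 113002 at high cadmium and 125833 to 145838 in its controls. At high mercury it was 98502 to 125369, against 113805 to 144872 in its controls. The exposed sums lay below the controls for acrylamide and cadmium and overlapped them for mercury. msp-19, a major sperm protein gene, differed by -0.09 ± 0.37, -0.39 ± 0.34 and -0.02 ± 0.22, and msp-78 by -0.07 ± 0.38, -0.36 ± 0.33 and -0.14 ± 0.2. Among moulting and adult cuticle genes, 0 of 9 tested fell at high acrylamide, 1 at high cadmium and 7 at high mercury. Over all probe sets 4.61%, 2.82% and 14% fell at these doses. bli-2, a collagen of the adult cuticle struts, fell by 1.66 ± 0.2 at high mercury (adjusted p = 2.9e-07) and differed by -0.23 ± 0.62 and -0.32 ± 0.46 at high acrylamide and cadmium, and rol-6, a cuticle collagen, differed by 0.47 ± 0.58, 0.08 ± 0.36 and -0.37 ± 0.18. Of 10 body wall muscle markers, 1 fell at high acrylamide, 1 at high cadmium and 6 at high mercury, beside 4.61%, 2.82% and 14% of all probe sets. Their summed signal was 22938 to 30570 at high acrylamide and 36440 to 45378 in its 8 h controls. It was 22416 to 30717 at high cadmium and 42207 to 45342 in its controls. At high mercury it was 20078 to 26948, against 41257 to 50758 in its controls. The exposed sums lay below the controls in each series. The part of this shift in the vitellogenin values was not tested. lev-11, a tropomyosin, fell by 0.67 ± 0.17 at high mercury (adjusted p = 0.00376), where act-4, an actin, differed by -0.48 ± 0.19 (adjusted p = 0.0592). Of 9 neuron markers tested, 0 rose at high acrylamide and cadmium and 4 at high mercury, where 17.1% of all probe sets did. egl-21, an enzyme of neuropeptide processing, rose by 0.72 ± 0.18 there (adjusted p = 0.00274), and snb-1 (synaptobrevin) differed by 0.46 ± 0.19 (adjusted p = 0.0686).

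Known regulators of vitellogenin transcription formed another list. Of 10 tested, 1 rose and 0 fell at high acrylamide, 1 rose and 0 fell at high cadmium, and 2 rose and 4 fell at high mercury. Over all probe sets 4.15% rose at high acrylamide, 3.61% at high cadmium and 17.1% at high mercury, where 14% fell, so that 2 of 10 at high mercury is near the background. pqm-1, a zinc finger factor that binds vitellogenin promoters, rose in all 3 series, by 0.85 ± 0.2 (adjusted p = 0.00552), 1.25 ± 0.29 (adjusted p = 0.00694) and 1.22 ± 0.18 (adjusted p = 3.95e-06). daf-16, the forkhead factor of insulin signalling, differed by 0.11 ± 0.2 and 0.48 ± 0.24 at high acrylamide and cadmium, and rose by 0.5 ± 0.17 at high mercury (adjusted p = 0.024). The 4 that fell at high mercury are named after their values were seen. They were ceh-60 (-1.54 ± 0.25) and unc-62 (-0.88 ± 0.23), homeodomain factors that drive vitellogenin transcription, elt-2 (-1.08 ± 0.29), the GATA factor of the intestine that also stands among the intestine markers, and the kinase gene sgk-1 (-0.62 ± 0.19). At high acrylamide ceh-60 and unc-62 differed by -0.48 ± 0.26 and -0.53 ± 0.25, and at high cadmium by 0.05 ± 0.27 and -0.24 ± 0.28, none called. mab-3 and daf-2 were too dim to test.

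Genes of lipoprotein assembly and endocytosis were also listed. Of 16 tested, 1 fell at high acrylamide, 0 at high cadmium and 1 at high mercury, where 1 also rose. The mercury counts stand beside 14% of all probe sets that fell and 17.1% that rose, and the acrylamide count beside 4.61% that fell. Both genes called are named after their values were seen. The one that fell was dsc-4, which codes for the microsomal triglyceride transfer protein that loads lipid onto vitellogenins in the intestine. It differed by -0.99 ± 0.24 at high acrylamide (adjusted p = 0.00747), by 0.74 ± 0.25 at high cadmium (adjusted p = 0.0836) and by -1.56 ± 0.31 at high mercury (adjusted p = 0.000334). The one that rose was rab-5, a GTPase of early endosomes (0.57 ± 0.18 at high mercury, adjusted p = 0.0135). rab-11.1 and rme-1, which recycle endocytic vesicles, differed by 0.11 ± 0.18 and -0.62 ± 0.27 at high acrylamide, by -0.18 ± 0.29 and -0.18 ± 0.24 at high cadmium and by 0.17 ± 0.17 and 0.28 ± 0.19 at high mercury, none called.

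Among themselves the vitellogenin probe sets followed one another across the 80 arrays, with Pearson's r between 0.78 and 0.995 over 45 pairs (median 0.929). Probe sets of vit-4 and vit-5 share sequence. All arrays share the time course and the doses, so these values describe the pattern and are not a test. rme-2 correlated with the mean of the vitellogenins at r = 0.884, over a range of 0.75 to 0.9 for single probe sets. Of 13635 other genes, those most like the vitellogenin mean were col-101, a collagen (r = 0.919), egg-1 (0.913), T12G3.6 (0.909), gfat-2, an enzyme of amino sugar synthesis (0.9), and tbh-1, tyramine beta-hydroxylase (0.898). They were followed by cbd-1 (0.89), EEED8.3 (0.887), fbxa-215 (0.886), and mex-6 and mex-5 (0.885 each), which code for RNA-binding proteins of the early embryo. Those most like rme-2 were cpg-1, an eggshell proteoglycan (0.959), mex-6 (0.958), gfat-2 (0.952), cpg-2 (0.945) and cyb-2.2, a cyclin B (0.944). At 8 h of high mercury col-101 fell by 2.65 ± 0.25 and cpg-1 by 1.36 ± 0.19. At high acrylamide col-101 differed by -1.29 ± 0.64, which was not called (limma's adjusted p = 0.251), and cpg-1 by -1.47 ± 0.4. At high cadmium they differed by -1.46 ± 0.36 and -1.95 ± 0.34, both called.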

How the data were processed

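The deposited values were linear intensity, the MAS5 signal of each probe set without detection calls; the submitters' processing notes name MAS5 and no version. Per the labels' protocols, biotin-labelled cRNA was amplified from polyadenylated RNA. The scaling target and any steps beyond MAS5 are not given in the sources used here. Of 22625 rows, 77 array controls were left out. Gene names came from the platform's annotation table: 20766 rows had 1 symbol, 887 several and 895 none. Median signals ran from 80.32, next 152.7, to 282.2, so arrays were centred on a shared median of 202.9, and log2 was taken after adding 51, the 20th percentile of all signals. A probe set entered the test if 3 or more arrays of its series exceeded 131, the 40th percentile (16542 for acrylamide, 16225 for cadmium, 15886 for mercury, 17855 for all arrays). limma 3.58.1 (R 4.3.3) was fitted per series with 1 mean per group and a mean-variance trend (residual degrees of freedom 18, 17 and 18), and over all arrays with 53. The p-values were adjusted within each contrast by the Benjamini-Hochberg method. The script was tested on simulated data. For arrays, their number limits the precision. The rank of a probe set is its place by log2 difference among those tested.

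Other settings tried were the authors' scaling, quantile normalization, a pseudocount of 1, no filter, no trend, only the groups compared, a replicate block, each array left out, and the actin ratio as a covariate. No share of all probe sets called was taken under them. Acrylamide replicates 2 and 3 alone, and exposed worms against the 0 h control, were added after seeing the data.

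The 7 genes, the lists of other genes and the contrasts were chosen with earlier results of these data known, and the lists were written from general knowledge. Up to 4 members per list are named: those called at 8 h of high acrylamide with the largest change, or the 2 of highest mean signal where fewer than 2 were called there. Exceptions are marked in the text. Likeness used the probe set of highest mean signal per gene. Same-numbered arrays of a series deviated together in 65 of 108 pairs of groups for acrylamide, 57 of 100 for cadmium and 80 of 108 for mercury at a correlation over 0.1. The sample descriptions give all arrays of a number in a series a shared code, whose meaning is not given in the sources used here. The main fits have no block, and counts with the replicate number as a block are printed where they differ by over 1.5 times.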

Additional observations from a re-analysis of the deposited data

Results flagged for a closer look

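Some results differed between exposed and control worms in how far a gene rose from 4 h to 8 h, by a test of that difference itself. At high cadmium the log2 rise less that of the controls was -2.82 ± 0.53 for vit-4 (171723_x_at), -2.56 ± 0.55 for vit-4 (172134_x_at), -3.18 ± 0.67 for vit-4 (172673_x_at), -2.62 ± 0.57 for the probe set shared by vit-4 and vit-5 (172133_x_at) and -2.84 ± 0.61 for vit-5 (limma's adjusted p between 0.0155 and 0.0459). At high mercury it was -2.98 ± 0.61, -2.68 ± 0.62 and -2.08 ± 0.5 for the 3 vit-4 probe sets in the same order, -2.65 ± 0.61 for vit-5, -2.24 ± 0.47 for vit-6 (173411_s_at) and -1.14 ± 0.26 for rme-2 (adjusted p between 0.0188 and 0.0417).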

How the results depend on the processing

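Sign was compared for the called probe sets of dose against control, of the control time course and of the change of the rise by dose. None of these differences changed sign under any setting. For single probe sets in the other comparisons sign was not compared. At 8 h of the high dose, leaving out single arrays gave 8 to 10 vitellogenin probe sets called lower for acrylamide, 8 to 10 for cadmium and 10 for mercury, and no other setting moved these counts by over 1.5 times. The cause of the changes below was not tested.

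The acrylamide mid dose at 8 h, with 3 called, gave 5 with the authors' scaling, 5 with quantile normalization, 0 with a pseudocount of 1, 1 without the filter, 6 with only the groups compared and 1 with the actin ratio (0 to 6 with single arrays left out). With acrylamide replicates 2 and 3 alone it gave 9, and the controls gave 1 between 0 h and 4 h and 10 between 4 h and 8 h. The rise from 4 h to 8 h then gave 10 at low and 8 at mid acrylamide, its change at high acrylamide 7 and the 4 h trend 1 (0 to 2 with single arrays left out). The acrylamide controls from 0 h to 4 h gave 3 with the authors' scaling and 1 with a pseudocount of 1 (0 with single arrays left out), and from 4 h to 8 h 0 with only the groups compared (0 to 9). Low acrylamide from 4 h to 8 h gave 4 with the authors' scaling (0 to 10).

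In the metal series, cadmium at 4 h gave 0 at the mid dose with only the groups compared and 1 with the actin ratio (0 to 2), and 0 at the high dose with the actin ratio (0 to 3). The 4 h cadmium trend gave 1 with the authors' scaling, a pseudocount of 1, no filter, no trend in the variance, only the groups compared or the actin ratio (1 to 4). Mercury at 4 h gave 3 at the low dose without the filter (1 to 7) and 4 at the high dose with the actin ratio (8 to 9). The change of the rise at high cadmium gave 0 with a pseudocount of 1, 1 without the filter, 1 without the variance trend and 3 with only the groups compared (0 to 7). At high mercury it gave 2 with a pseudocount of 1 and 2 without the filter (0 to 8), and at low mercury 1, a larger rise, with only the groups compared (0). Between mercury and cadmium at the high dose, a pseudocount of 1 gave 1 at 4 h (0 to 1), and at 8 h the authors' scaling gave 1 and quantile normalization 2 (0 to 2). Against the 0 h control, high acrylamide gave 1 with the actin ratio (0 to 2), mid mercury 6 with the authors' scaling and 1 with the actin ratio (1 to 8), and high mercury 1, lower than at 0 h, with only the groups compared (0 to 4, all lower).

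Ranges over single arrays left out for the other counts were 3 to 6 for mid cadmium at 8 h, 9 for mid mercury at 4 h, 10 for mid mercury at 8 h, 2 to 4 and 2 to 7 for the cadmium and mercury controls from 0 h to 4 h, 9 to 10, 9 and 3 to 8 for low, mid and high cadmium from 4 h to 8 h, and 7 to 9 for mid mercury. They were 0 to 4 for the change of the rise at mid cadmium, 8 to 10 and 9 to 10 for the acrylamide and cadmium trends at 8 h, and, against 0 h, 5 to 9 for mid acrylamide, 9 to 10 for mid cadmium and 8 to 9 for high cadmium. Where 1 array was left in a group, it was assumed to vary like the others.

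The labels give all arrays of a replicate number in a series a shared code. Each array correlated best with arrays of its own number in 24 of 27, 20 of 26 and 27 of 27 cases for acrylamide, cadmium and mercury. With the replicate number as a block, high acrylamide at 4 h gave 3, mid acrylamide at 8 h 7, high cadmium at 4 h 2, the acrylamide controls 4 (0 h to 4 h) and 10 (4 h to 8 h), and the mercury controls 8 (0 h to 4 h). The block gave 10 and 7 for the rise at low and mid acrylamide, 8 for its change at high mercury, 5 for the acrylamide trend at 4 h, 1 and 3 between mercury and cadmium at 4 h and 8 h, and, against 0 h, 5 above for mid mercury and 1 below for high mercury. It moved no other count of vitellogenin probe sets by over 1.5 times.

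The number of arrays per group limits the precision, and dim probe sets have compressed differences on this scale.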
